A study of Mus musculus with 24 samples.

Results

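The genes described here are 7 muscarinic acetylcholine and adrenergic receptor genes, Chrm1, Chrm3, Chrm4, Adra1b, Adra2a, Adra2c and Adrb1, of the 32728 genes listed in the deposited tables. They were found by gene name, and they were selected on their measured responses: Chrm4 and Adra2c were picked because their responses ran in opposite directions in neurons and in astrocytes. The wording of that choice does not say which response was read. Differences between tunicamycin and DMSO, and differences between genotypes under tunicamycin, are therefore given for these 7 genes as descriptions with a standard error (SE) and no p-value. Where the number of members past the threshold in such a contrast is printed beside the share of all genes, it is background, and nothing is read from it. Tests are given for the genotype comparison without tunicamycin and for the comparison of the cell types without tunicamycin. For Chrm4 and Adra2c even these tests may not be fully independent of the choice.

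RNA was sequenced from cultured mouse neurons and cultured mouse astrocytes carrying Perk loxP/loxP alleles. Perk (gene symbol Eif2ak3) is a kinase of the endoplasmic reticulum (ER) that slows protein synthesis when unfolded proteins accumulate. Cells called WT received a lentivirus with an inactive recombinase (ΔCre), and cells called KO received a lentivirus with active Cre, so that all 8 groups carried the floxed alleles and were transduced. The promoter that drove the recombinase is not given in the sources used here. At day 14 in vitro, each culture received tunicamycin (TM), which blocks N-glycosylation and causes ER stress, at 5 µg/mL for 24 hours, or an equal volume of DMSO as the control. Each of the 8 groups (2 cell types, 2 genotypes, with and without TM) had 3 libraries labelled as biological replicates. The labels do not say whether these came from separate animals, so the p-values measure the spread between these libraries.

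Muscarinic receptors respond to acetylcholine and adrenergic receptors to noradrenaline and adrenaline, and all are G protein-coupled receptors of the cell surface. The M1 and M3 receptors (Chrm1, Chrm3) and the alpha-1B receptor (Adra1b) couple mainly to Gq and phospholipase C, which releases calcium from the ER. The M4 receptor (Chrm4) and the alpha-2A and alpha-2C receptors (Adra2a, Adra2c) couple to Gi/o, which lowers cyclic AMP, whereas the beta-1 receptor (Adrb1) couples to Gs, which raises it. In the brain, alpha-2 receptors sit on noradrenergic terminals and on many other neurons, and astrocytes are known to respond to noradrenaline.

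Library totals ran from 16.0 M to 25.9 M counts, where M is 1000000. Eif2ak3 was 6.63-fold lower in KO than in WT control neurons (log2 difference -2.73 ± 0.12 SE, edgeR quasi-likelihood adjusted p = 4.29e-05) and 3.85-fold lower in control astrocytes (-1.94 ± 0.14, adjusted p = 0.00261). TM raised all 4 ER stress check genes (Eif2ak3, Hspa5, Ddit3, Atf4) in each of the 4 cell type and genotype combinations. The neuron cultures contained RNA of astrocyte markers: the summed level of 11 such markers was 3120 to 3320 counts per 1000000 (CPM) in WT control neurons and 2390 to 3660 CPM in WT control astrocytes. Neuron markers differed widely in the astrocyte cultures. The summed level of 10 such markers was 307 to 352 CPM in WT control astrocytes and 5950 to 6470 CPM in WT control neurons, and most of the astrocyte sum was Map2 (179 ± 22.2 CPM, SD, n = 3) and Stmn2 (88.3 ± 9.5 CPM). The defining marker Rbfox3 was at 1.06 ± 0.207 CPM and Snap25 at 0.163 ± 0.143 CPM in WT control astrocytes, against 152 ± 4.9 and 798 ± 66.8 CPM in WT control neurons, and Slc17a6 and Neurod6 had no count in any astrocyte library. In such bulk samples, fewer cells of a type and less RNA per cell cannot be told apart.

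Coordinates are those deposited with the counts, on GRCm38.p6. Chrm1 lies at chr19:8663789-8683587, Chrm3 at chr13:9875486-10360847 and Chrm4 at chr2:91927249-91928688. Adra1b lies at chr11:43774606-43901210, Adra2a at chr19:54045182-54048982, Adra2c at chr5:35278319-35281763 and Adrb1 at chr19:56722372-56724862. The coding sequence of 6 of the 7 genes lies in 1 exon in GENCODE M21, and that of Adra1b in 2. The GC content of their transcripts ran from 50.2% (Chrm3) to 65.5% (Adra2c), above the median of 49.6% over protein-coding genes. The deposited Chrm4 model spans 1440 bases, and the RefSeq start of the gene lies 5060 bases upstream of it, so reads from an upstream exon would not have been counted for Chrm4. Exons of Chrm1 share 329 bases with Gm22820, a misc_RNA on the opposite strand, and the other 6 genes share no exonic base with another gene of that annotation.

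Control neurons held more RNA than control astrocytes for 6 of the 7 receptors and less for Adrb1. In WT control neurons the order by CPM per kilobase of gene length, which allows genes to be compared, was Chrm1 (26.4 ± 1.86, SD, n = 3), Chrm4 (9.22 ± 0.444), Adrb1 (8.74 ± 0.533), Adra2a (7.28 ± 0.217), Chrm3 (6.25 ± 0.72), Adra2c (6.02 ± 0.0318) and Adra1b (4.39 ± 0.435). Chrm4 and Adrb1 overlapped between libraries, as did Chrm3 and Adra2c. Among the 7 members in WT control astrocytes, Adrb1 led with 12.1 ± 0.884 CPM per kilobase. Adra2a at 2.35 ± 0.549 and Adra1b at 1.95 ± 0.628 followed, and their libraries overlapped. Adra2c (0.551 ± 0.176), Chrm4 (0.472 ± 0.14) and Chrm3 (0.277 ± 0.176) were lower, with libraries that overlapped each other, and Chrm1 was at 0.0112 ± 0.0129.

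**Figure D1:**
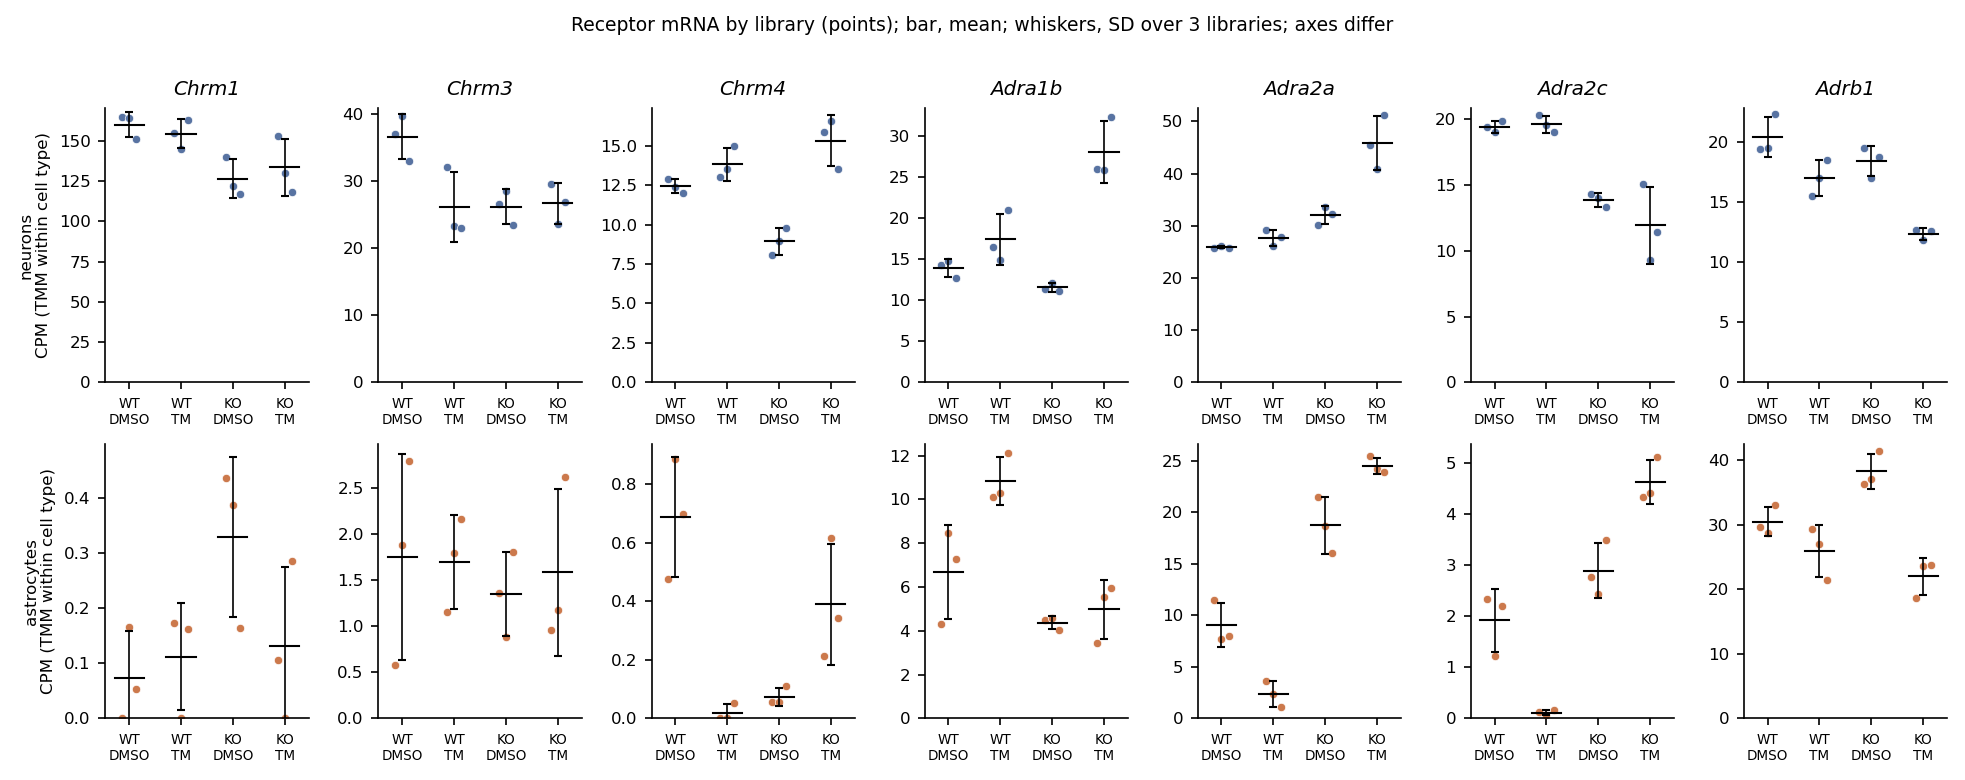
Level of each receptor mRNA in every library, in CPM scaled within each cell type, with neurons above and astrocytes below; points are libraries, the bar is the mean and whiskers are the SD over 3 libraries, and the axes differ between panels. Adra2c in astrocytes shows 3 WT libraries under TM near 0, at 0.0617 to 0.162 CPM, and 3 KO libraries under TM at 4.34 to 5.13 CPM.

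The difference between cell types was tested in control cultures for the 5 members whose counts were also high enough to be fitted in control astrocytes. Chrm1 and Chrm4 passed the count filter in this comparison through the neuron libraries, so their values are given with no test. Chrm1, the main muscarinic receptor of forebrain neurons, had 8952 counts in all in WT neurons and 4 in WT astrocytes, a ratio of counts per total of 2230 with an exact 95% interval of 872 to 8200, which covers counting error only. The Gi/o-coupled Chrm4 had 694 and 39 counts, a ratio of 17.8 (12.9 to 25.2). Adra2c was 11.1-fold higher in WT neurons (log2 difference 3.47 ± 0.24, adjusted p = 2.04e-06). Chrm3, the M3 receptor, was 23.4-fold higher in neurons, Adra2a 3.17-fold and Adra1b 2.32-fold. Adrb1, the Gs-coupled member, was 1.35-fold lower in neurons (-0.43 ± 0.13, adjusted p = 0.0148), and this call was lost without WT control neuron replicate 1 (-0.36, adjusted p = 0.0753) or replicate 2 (-0.38, adjusted p = 0.0666). All 5 tested members differed between WT cell types, where 71.1% of all genes tested differed, and all 5 differed between KO cell types, where 69.3% did. Among KO cultures the ratio of counts was 118 for Chrm4 (45.9 to 435), set against 4 counts in all in the KO astrocytes, and 377 for Chrm1 (238 to 636), set against 18. The difference was 5.06-fold for Adra2c and 1.81-fold for Adra2a, and Adrb1 was 1.96-fold lower in neurons. The share of members that differed can be read only against these backgrounds, in which most genes differed.

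The astrocyte content of the neuron cultures bears on these contrasts, because neurons and astrocytes of the neuron cultures were measured together. The part of the neuron-culture level of Adrb1, Adra2a and Adra1b that came from astrocytes was not tested.

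Across all 8 groups, the order of the levels was led by neurons for 6 genes. For Chrm1, Chrm3, Chrm4 and Adra2c, all 4 neuron groups stood above all 4 astrocyte groups. For Adra2a the highest group was KO neurons under TM (12.1 ± 1.43 CPM per kilobase), and KO astrocytes under TM (6.38 ± 0.207) stood just below WT neurons under TM (6.91 ± 0.358), with which their libraries overlapped. For Adra1b, WT astrocytes under TM (3.16 ± 0.315) overlapped KO control neurons (3.52 ± 0.169). Adrb1 was highest in KO control astrocytes (15.2 ± 1.09) and lowest in KO neurons under TM (4.99 ± 0.183), and from WT control astrocytes down to WT neurons under TM each group overlapped the next.

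Loss of Perk without TM was accompanied in neurons by lower RNA of the 3 muscarinic members and of Adra2c. RNA of Adra2a was higher, and these differences were under 1.5-fold. The muscarinic receptors outside the members had positive values that did not pass the threshold: Chrm2 (log2 0.92 ± 0.33, adjusted p = 0.0781) and Chrm5 (0.98 ± 0.51, adjusted p = 0.198). Chrm1 stood at 165, 164 and 151 CPM in the 3 WT control libraries and at 140, 122 and 117 CPM in the KO libraries, 1.25-fold lower (log2 difference -0.33 ± 0.09, adjusted p = 0.0372). The groups did not overlap. Chrm3 stood at 36.9, 39.7 and 33.0 CPM in WT and at 26.5, 28.5 and 23.4 CPM in KO, 1.39-fold lower (-0.47 ± 0.12, adjusted p = 0.0255), again without overlap. Chrm4, the M4 autoreceptor of cholinergic terminals and a receptor of striatal projection neurons, stood at 12.9, 12.4 and 12 CPM in WT and at 8.07, 8.95 and 9.78 CPM in KO (-0.46 ± 0.13, adjusted p = 0.0415).

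Among the adrenergic receptors of control neurons, Adra2c stood at 19.4, 19.0 and 19.9 CPM in WT and at 14.3, 14.0 and 13.3 CPM in KO (-0.47 ± 0.11, adjusted p = 0.0189). Adra2a, which shares its Gi/o coupling, moved the other way, from 25.8, 26.1 and 25.8 CPM in WT to 30.2, 33.6 and 32.3 CPM in KO (0.32 ± 0.09, adjusted p = 0.0446). In neither case did WT and KO libraries overlap. Adra1b (-0.26 ± 0.12, adjusted p = 0.169) and Adrb1 (-0.13 ± 0.11, adjusted p = 0.437) did not pass the threshold of 0.05. Thus 5 of the 7 members passed, where 21.4% of all genes tested did. That count includes Chrm4 and Adra2c, which were picked on their responses, and nothing is read from it.

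These neuronal calls were close to the threshold. A correction for GC content left 2 of the 5, Chrm3 and Adra2a, with Chrm1 at -0.18 (adjusted p = 0.162), Chrm4 at -0.31 (adjusted p = 0.133) and Adra2c at -0.35 (adjusted p = 0.0617). Without a filter on low counts Adra2a did not pass (0.30, adjusted p = 0.15). No member passed without KO control replicate 2, without KO control replicate 3 or without WT control replicate 1. In the same comparison, 5 of 10 neuron markers were lower in KO neurons and none was higher, and 4 of 10 tested astrocyte markers were higher and none lower. Of other marker lists, 6 of 9 fibroblast and mural markers and 3 of 8 tested microglia markers were higher and none lower. In the oligodendrocyte lineage 4 of 10 were lower and 1 higher. These counts stand beside 21.4% of all genes called. The summed astrocyte markers were 3120 to 3320 CPM in WT and 4020 to 4190 CPM in KO control neurons. The part of these marker differences in the receptor differences was not tested.

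In control astrocytes, loss of Perk was accompanied by higher RNA of Adra2a, the alpha-2A receptor. Its 3 WT libraries stood at 11.5, 7.65 and 8.01 CPM and its 3 KO libraries at 21.5, 18.7 and 16.0 CPM, a 2.09-fold difference (log2 1.06 ± 0.20, adjusted p = 0.0152) without overlap. The call was lost without KO control replicate 2 (1.06, adjusted p = 0.0598), WT control replicate 2 (0.95, adjusted p = 0.0766) or WT control replicate 3 (0.98, adjusted p = 0.0587). Adrb1 stood at 29.6, 28.8 and 33.0 CPM in WT and at 36.4, 37.1 and 41.4 CPM in KO. Its difference of 0.34 ± 0.11 missed the threshold (adjusted p = 0.0674), and it passed once the replicate number was kept as a block (0.34, adjusted p = 0.0107).

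Of the other members in control astrocytes, Adra2c (0.60 ± 0.32, adjusted p = 0.218), Adra1b (-0.59 ± 0.26, adjusted p = 0.152) and Chrm3 (-0.35 ± 0.54, adjusted p = 0.678) did not pass. Adra1b passed without WT control replicate 1 (-0.83, adjusted p = 0.0189), the library with its lowest WT level. Chrm1 and Chrm4 had fewer than 10 counts on average and were not in the fit. Chrm4 had 10, 16 and 13 counts in the WT libraries and 1, 1 and 2 in the KO libraries, so that the KO to WT ratio of counts per total was 0.11 with an exact 95% interval of 0.0285 to 0.304, which covers counting error only. Chrm1 had 4 counts in all in WT and 18 in KO, a ratio of 4.81 (1.58 to 19.5). Of the 5 members fitted, 1 was called, against 14.9% of all genes tested.

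**Figure D2:**
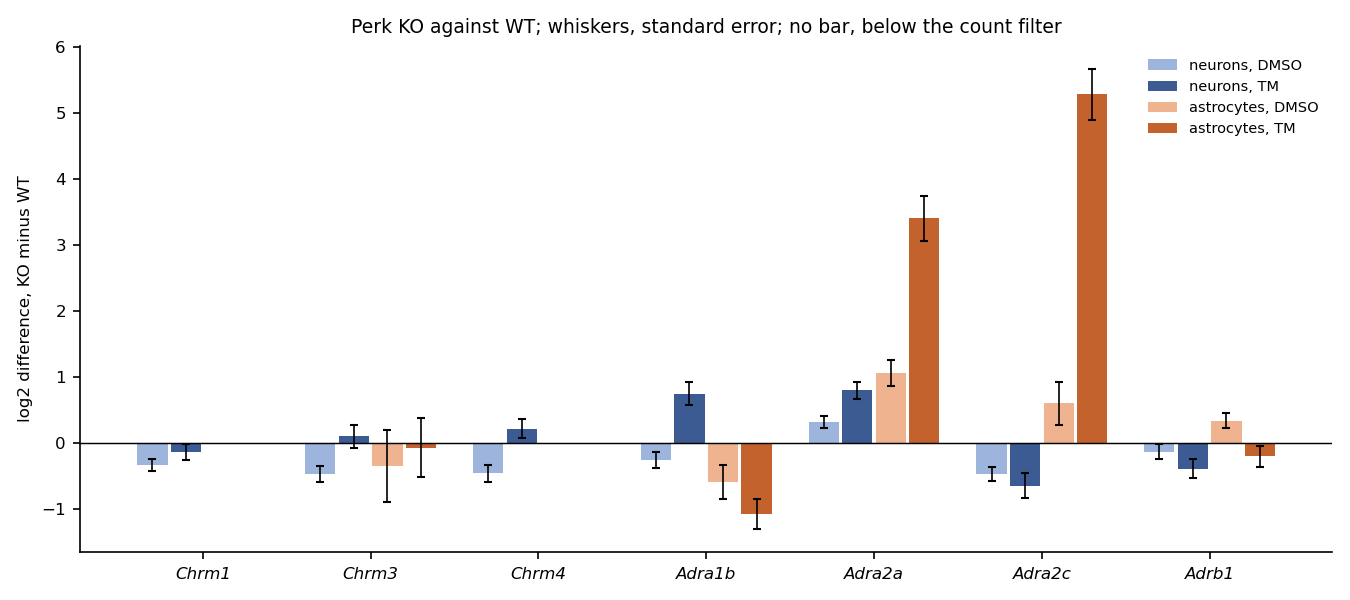
log2 difference of KO minus WT for each receptor in control and TM-treated neurons and astrocytes, with SE whiskers; a missing bar marks a gene below the count filter. In control neurons 4 of the 5 differences that passed the test lie below 0, and Adra2a lies above 0 in all 4 comparisons.

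The KO minus WT difference was then compared between control neurons and control astrocytes. On the log2 scale, neurons less astrocytes, the value was -0.78 ± 0.22 for Adra2a (adjusted p = 0.0271), higher in KO in both cell types but by less in neurons. For Adra2c it was -1.11 ± 0.29, with KO libraries below WT in neurons and above WT in astrocytes. Because Adra2c was picked for opposite responses in the cell types, no test of this value is given. For Adrb1 it was -0.52 ± 0.15 (adjusted p = 0.0323). Past the threshold were 3 of the 5 members fitted in both cell types, beside 20.3% of all genes tested. That count includes Adra2c, and nothing is read from it. A GC correction ended the calls of Adra2a (-0.68, adjusted p = 0.0614) and Adrb1 (-0.41, adjusted p = 0.0995), and Adrb1 also did not pass without a count filter (-0.48, adjusted p = 0.171). Of the 12 fits that left out 1 library, the call was lost in 8 for Adra2a and in 10 for Adrb1. The Adra2c value was -1.05 without neuron KO control replicate 3. Chrm1 (-2.51 ± 0.65) and Chrm4 (2.59 ± 0.47) entered this fit through the neuron libraries and rest on the few astrocyte counts given above, so no test is given for them.

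Among WT cells, the responses to TM of Chrm4, Adra2c and Adra2a differed most between the cell types, and their promoters are shown for that reason. They come from the RefSeq table on GRCm38.p6, which holds 6 of the 7 members, and run from 250 bases before to 50 bases after the start of the gene, on the gene's strand. Capitals mark CCAAT, a box bound by NF-Y, and CCACG, the other part of the ER stress element, on either strand. The regions are chr2:91921939-91922238 for Chrm4, chr5:35278316-35278615 for Adra2c and chr19:54045009-54045308 for Adra2a, all on the plus strand.
Chrm4: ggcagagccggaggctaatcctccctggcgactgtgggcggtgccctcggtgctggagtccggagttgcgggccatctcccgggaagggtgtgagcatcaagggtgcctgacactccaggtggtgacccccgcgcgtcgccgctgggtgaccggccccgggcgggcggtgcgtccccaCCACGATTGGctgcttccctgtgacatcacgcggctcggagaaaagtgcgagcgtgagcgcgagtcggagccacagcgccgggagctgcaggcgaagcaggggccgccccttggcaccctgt
Adra2c: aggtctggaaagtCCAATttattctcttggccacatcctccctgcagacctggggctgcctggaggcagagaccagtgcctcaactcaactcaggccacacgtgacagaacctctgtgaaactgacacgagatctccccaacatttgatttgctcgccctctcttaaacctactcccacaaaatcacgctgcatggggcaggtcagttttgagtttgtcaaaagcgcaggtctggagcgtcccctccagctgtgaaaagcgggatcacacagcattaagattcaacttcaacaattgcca
Adra2a: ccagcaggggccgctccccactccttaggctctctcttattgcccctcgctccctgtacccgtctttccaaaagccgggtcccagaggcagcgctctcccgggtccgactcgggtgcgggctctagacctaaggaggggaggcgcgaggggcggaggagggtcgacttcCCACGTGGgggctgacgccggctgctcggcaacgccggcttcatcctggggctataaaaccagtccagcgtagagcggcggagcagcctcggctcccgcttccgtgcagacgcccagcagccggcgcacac

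In the Chrm4 promoter, 1 copy of the CCACG element was directly followed by 1 NF-Y box on the opposite strand, starting 72 and 67 bases before the start. In the Adra2c promoter the only NF-Y box lay 237 bases before the start, and in the Adra2a promoter the CCACG element occurred on each strand in an overlapping pair. The NF-Y box was present in 37.4% and the CCACG element in 32.8% of the 32851 promoters of the table on either strand. The E-box (CACGTG, in 7.15% of promoters) was found in Adra2c and, overlapping that pair, in Adra2a. The GC box (GGGCGG, in 35.7%) was found in Chrm4 and Adra2a. Neither the element read by ATF4 and CHOP (TGATGNAA, in 3.97%) nor the cyclic AMP element (TGACGTCA, in 1.79%) was in any of these 3 windows, on either strand. The GC content was 70.7% for Chrm4, 68.7% for Adra2a and 51.3% for Adra2c, beside a median of 52.7% over the table. These matches are descriptions of letters and say nothing of binding. The parts of the ER stress element were searched for singly. Their order and spacing were not compared with those of the full element, so the adjacent parts in Chrm4 are not called that element.

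In WT astrocytes, the RNA of all 3 of these Gi/o-coupled receptors was lower under TM. Adra2c had 49, 22 and 41 counts in the DMSO libraries (2.34, 1.22 and 2.20 CPM) and 2, 1 and 3 counts under TM (0.115, 0.0617 and 0.162 CPM). No TM library reached the lowest DMSO library, and the log2 difference was -4.01 ± 0.51, a 16.1-fold lower level. Chrm4 had 10, 16 and 13 counts with DMSO and 0, 0 and 1 under TM. The ratio of TM to DMSO counts per total was 0.0259, with an exact 95% interval of 0.00064 to 0.153. Adra2a stood at 11.5, 7.65 and 8.01 CPM with DMSO and at 3.63, 2.40 and 1.08 CPM under TM (-1.95 ± 0.41), without overlap.

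**Figure D3:**
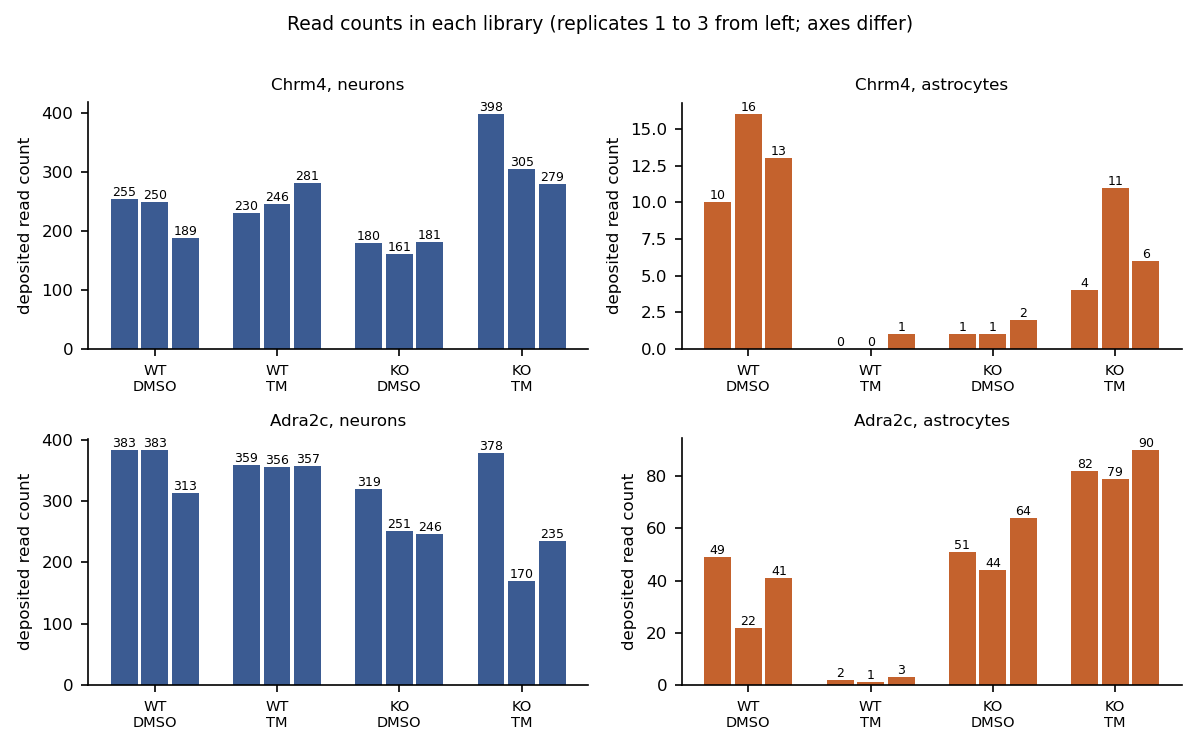
Deposited read counts of Chrm4 and Adra2c in each of the 24 libraries, with 3 bars per group for replicates 1 to 3; axes differ between panels. In astrocytes the WT libraries under TM hold 0 to 1 counts of Chrm4 and 1 to 3 counts of Adra2c.

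The Gq-coupled and Gs-coupled members did not share this pattern in WT astrocytes. Adra1b stood at 4.30, 8.48 and 7.26 CPM with DMSO and at 10.1, 10.3 and 12.1 CPM under TM (log2 0.68 ± 0.25), so its TM libraries were all above its DMSO libraries. Adrb1 stood at 29.6, 28.8 and 33.0 CPM with DMSO and at 29.4, 27.0 and 21.5 CPM under TM (-0.25 ± 0.14), with overlap. Chrm3 stood at 0.573 to 2.79 CPM with DMSO and at 1.15 to 2.16 CPM under TM, with overlap, and Chrm1 had 4 counts in all with DMSO and 6 under TM. Of the 5 members fitted, 3 were past the threshold in this contrast, beside 52.7% of all genes tested, and nothing is read from that count because the choice of members used this response.

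In KO astrocytes the 3 Gi/o-coupled receptors were higher under TM, not lower. Adra2c had 51, 44 and 64 counts with DMSO and 82, 79 and 90 under TM, or 2.77, 2.43 and 3.49 CPM against 4.34, 4.43 and 5.13 CPM (log2 0.67 ± 0.23), without overlap. Chrm4 had 1, 1 and 2 counts with DMSO and 4, 11 and 6 under TM, a ratio of 5.29 with an exact interval of 1.78 to 21.2. Adra2a stood at 21.5, 18.7 and 16.0 CPM with DMSO and at 25.4, 24.2 and 23.9 CPM under TM (0.39 ± 0.13), without overlap. Adrb1 went the other way, from 36.4, 37.1 and 41.4 CPM to 18.7, 23.6 and 23.7 CPM (-0.81 ± 0.12). Adra1b (0.18 ± 0.24) and Chrm3 (0.22 ± 0.45) overlapped between DMSO and TM. Past the threshold was 1 of the 5 members fitted, Adrb1, beside 10.1% of all genes tested.

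**Figure D4:**
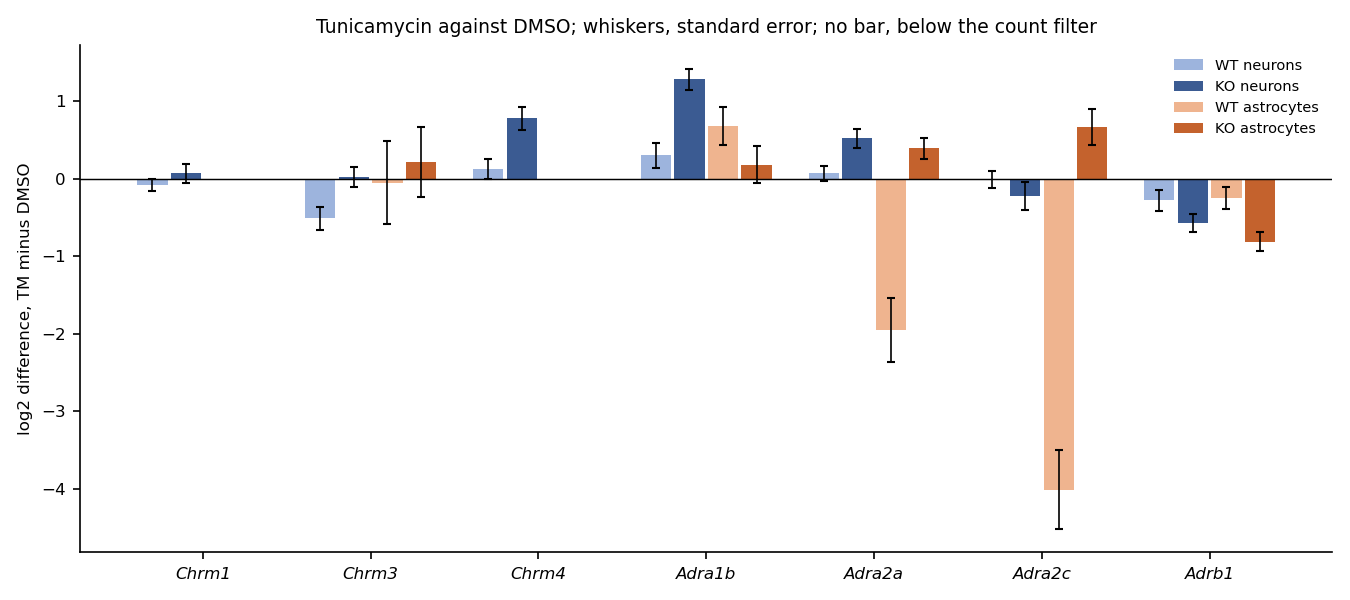
log2 difference of TM minus DMSO for each receptor in WT and KO neurons and astrocytes, with SE whiskers; a missing bar marks a gene below the count filter. The lowest bars are Adra2c at -4.01 and Adra2a at -1.95 in WT astrocytes, and the tallest is Adra1b at 1.28 in KO neurons.

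In WT neurons the receptors differed little under TM. Adra2c stood at 19.4, 19.0 and 19.9 CPM with DMSO and at 20.3, 19.6 and 19.0 CPM under TM (log2 -0.01 ± 0.11), with overlap. Chrm4 stood at 12.9, 12.4 and 12 CPM with DMSO and at 13.0, 13.5 and 15.0 CPM under TM (0.13 ± 0.13), where the TM libraries lay narrowly above. Scaled over all 24 libraries, these groups overlapped, at 9.22 ± 0.444 and 9.12 ± 0.744 CPM per kilobase. Adra2a was at 25.8 to 26.1 CPM with DMSO and 26.1 to 29.2 CPM under TM (0.07 ± 0.10). Chrm3 was the member with the largest difference, from 36.9, 39.7 and 33.0 CPM to 32.1, 23.3 and 22.9 CPM (-0.51 ± 0.15), with no overlap. Adra1b (0.30 ± 0.16), Adrb1 (-0.28 ± 0.13) and Chrm1 (-0.08 ± 0.08) differed by less. Past the threshold was 1 of 7 members, beside 51.8% of all genes tested.

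In KO neurons, Adra1b was the member with the largest difference under TM. It stood at 11.4, 12.1 and 11.1 CPM with DMSO and at 25.9, 25.8 and 32.3 CPM under TM, 2.43-fold higher (log2 1.28 ± 0.14). Chrm4 stood at 8.07, 8.95 and 9.78 CPM with DMSO and at 15.9, 16.6 and 13.5 CPM under TM (0.78 ± 0.15), and Adra2a at 30.2, 33.6 and 32.3 CPM against 45.4, 40.9 and 51.3 CPM (0.52 ± 0.12). In these 3 genes every TM library was above every DMSO library. Adrb1 was lower under TM, from 19.5, 17.0 and 18.7 CPM to 12.7, 11.8 and 12.6 CPM (-0.57 ± 0.12). Adra2c was at 14.3, 14.0 and 13.3 CPM with DMSO and 15.1, 9.27 and 11.4 CPM under TM (-0.22 ± 0.18), and Chrm1 (0.07 ± 0.12) and Chrm3 (0.02 ± 0.13) overlapped as well. Past the threshold were 4 of 7 members, beside 23.8% of all genes tested.

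The contrast that set Adra2c apart was KO against WT under TM. In astrocytes the 3 WT libraries held 0.115, 0.0617 and 0.162 CPM and the 3 KO libraries 4.34, 4.43 and 5.13 CPM, a log2 difference of 5.29 ± 0.39. By counts alone the ratio was 44.6 with an exact interval of 20.2 to 123. In neurons the same contrast ran from 20.3, 19.6 and 19.0 CPM in WT to 15.1, 9.27 and 11.4 CPM in KO (-0.65 ± 0.19), also without overlap. The library with the highest KO value, replicate 1, was also the deepest of all 24 libraries.

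Adra2a was higher in KO than in WT under TM in both cell types, by 3.41 ± 0.34 in astrocytes and by 0.80 ± 0.13 in neurons on the log2 scale. Chrm4 had 1 count in all in WT astrocytes under TM and 21 in KO astrocytes, a ratio of 22.4 with an exact interval of 3.6 to 926, and its neuron libraries overlapped (0.22 ± 0.15). Adra1b was lower in KO astrocytes (-1.08 ± 0.23) and higher in KO neurons (0.75 ± 0.17), with no overlap in either cell type. Adrb1 was at -0.20 ± 0.16 in astrocytes and -0.39 ± 0.14 in neurons. Past the threshold were 3 of 5 fitted members in astrocytes, beside 63.3% of all genes tested, and 3 of 7 in neurons, beside 40.1%. Contrasts that share a group, such as TM against DMSO in WT astrocytes and KO against WT under TM, are not independent of each other.

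RNA of other cell type markers moved with these receptor levels. In astrocyte cultures the sum of 7 excitatory neuron markers was 32.5 to 60.5 CPM in WT with DMSO, 6.05 to 7.95 CPM in WT with TM, 60.9 to 97.5 CPM in KO with DMSO and 73.7 to 109 CPM in KO with TM, the same order of group means as Adra2c. Nearly all of that sum was Camk2a, a kinase of excitatory synapses, at 43.3 ± 14.7, 2.79 ± 0.734, 75.8 ± 18.9 and 86.9 ± 18.5 CPM. The vesicular glutamate transporter Slc17a7 was at 0.217 ± 0.204 CPM in WT with DMSO and 0.349 ± 0.133 CPM with TM, and Slc17a6 and Neurod6 had no count. The general neuron marker Rbfox3 was at 1.06 ± 0.207, 0.171 ± 0.107, 0.31 ± 0.14 and 0.238 ± 0.17 CPM in the same 4 groups. Rbfox3 was lower under TM in WT, and with DMSO it was lower in KO than in WT, as Chrm4 was. Chrm4, unlike Rbfox3, was higher in KO with TM than in KO with DMSO. The neuron markers did not all move this way: of 8 tested in WT astrocytes under TM, 5 were lower and 2 higher, beside 52.7% of all genes called. Tubb3 went from 21.1 ± 3.56 to 83.6 ± 7.26 CPM and Nefm from 15.4 ± 5.99 to 43.6 ± 15.8 CPM. The sum of all 10 neuron markers overlapped between WT astrocytes with DMSO (307 to 352 CPM) and with TM (259 to 363 CPM).

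Astrocyte markers moved as well. In WT astrocytes 8 of 10 tested astrocyte markers were lower under TM and none was higher, beside 52.7% of all genes called. The summed level of the 11 markers was 2390 to 3660 CPM with DMSO and 654 to 745 CPM with TM. It was 3230 to 4380 CPM in KO astrocytes with DMSO and 1960 to 2620 CPM with TM. In neuron cultures the same sum was 3120 to 3320 CPM in WT with DMSO, 1010 to 1130 CPM in WT with TM, 4020 to 4190 CPM in KO with DMSO and 3240 to 4360 CPM in KO with TM. All 11 markers were higher in KO than in WT neurons under TM, beside 40.1% of all genes called. The part of these marker changes in the receptor differences was not tested.

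**Figure D5:**
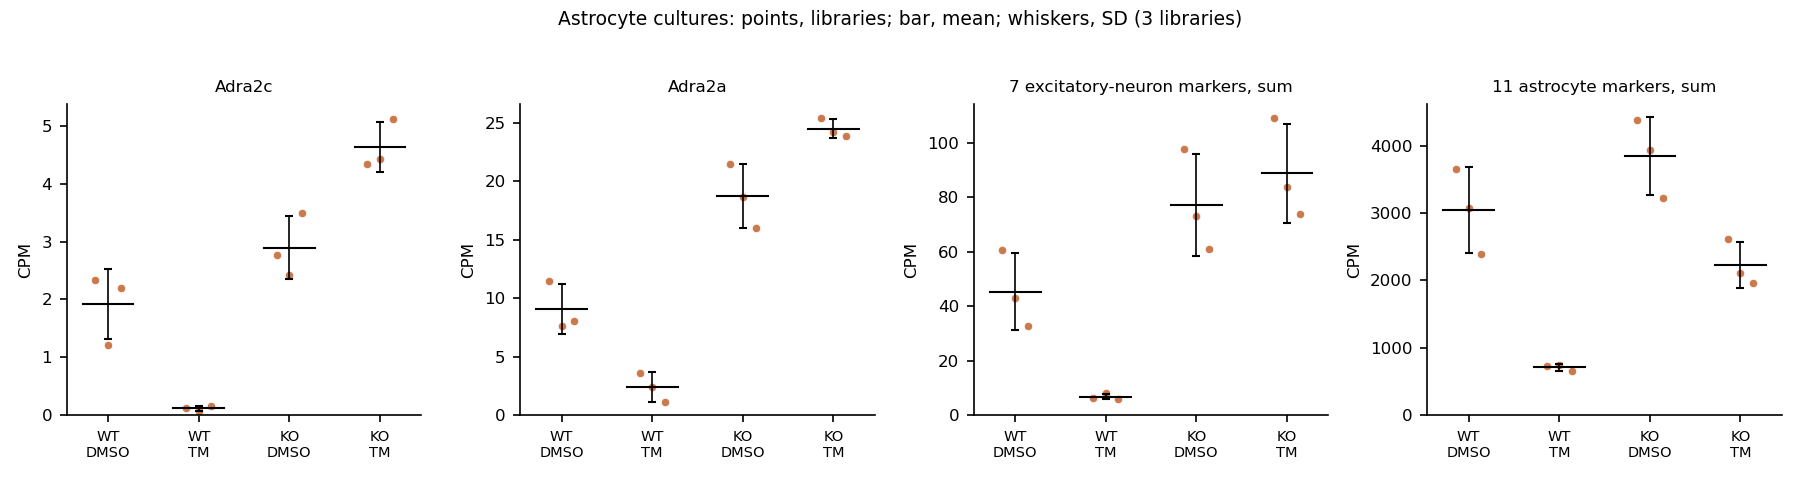
Adra2c, Adra2a and the summed levels of 7 excitatory neuron markers and 11 astrocyte markers in the 12 astrocyte libraries, in CPM; points are libraries, the bar is the mean and whiskers are the SD over 3 libraries. The WT libraries under TM are the lowest in all 4 panels, with marker sums of 6.05 to 7.95 CPM and 654 to 745 CPM.

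The genes whose pattern was most like that of Adra2c or Chrm4 were ranked by Pearson r over the 24 libraries, after each gene was centred within each cell type, among 10093 protein-coding genes. These libraries share groups and depth, so r is a description. The nearest to Adra2c were Rtl6 (r = 0.955), the synaptotagmin Syt5 (0.94), Sybu, which links vesicles to kinesin (0.931), the phospholipid flippase Atp9a (0.924) and Nudt10 (0.918). Within astrocytes alone, r was 0.961, 0.967, 0.953, 0.965 and 0.938 in this order. Within neurons alone it was lower, at 0.941, 0.727, 0.859, 0.569 and 0.764. Rtl6 stood at 28.7 ± 3.7 CPM in WT astrocytes with DMSO, 13.7 ± 0.519 with TM, 37.0 ± 4.58 in KO with DMSO and 37.7 ± 2.63 in KO with TM. In neurons it was at 108 ± 0.865, 109 ± 6.92, 82.7 ± 0.968 and 70.6 ± 4.42 CPM in the same order of groups, so that KO libraries were lower, as they were for Adra2c.

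The nearest to Chrm4 were less close: the interferon response factor Irf1 (r = 0.818), the peptide transporter Tap1 (0.753), the NF-kB inhibitor Nfkbie (0.749), Tnip1 (0.748) and Zfyve1 (0.733). Irf1 stood at 245 ± 73.9 CPM in WT astrocytes with DMSO, 51.2 ± 19.8 with TM, 58.6 ± 9.31 in KO with DMSO and 98.8 ± 18.8 in KO with TM. In neurons Irf1 was at 9.92 ± 0.992, 9.08 ± 0.226, 8.54 ± 0.819 and 22.7 ± 5.05 CPM, highest in KO with TM. In astrocytes these r values rest on Chrm4 libraries with 0 to 16 counts.

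Of the other receptors of the 2 families, Chrm2, Chrm5 and Adra2b had group means of 3.64 CPM or less. In WT control astrocytes, Adra1d stood at 6.87 ± 1.03 and Adrb3 at 3.15 ± 0.346 CPM per kilobase, beside 2.35 ± 0.549 for the member Adra2a. Adra1a stood at 7.43 ± 0.295 CPM in WT control neurons and 3.68 ± 0.428 CPM in WT control astrocytes. Adra2b, the third alpha-2 receptor, and Chrm5 had 0 counts in 3 of the 4 astrocyte groups. In WT astrocytes under TM, the beta receptor Adrb3 (log2 -1.05 ± 0.20, adjusted p = 0.00316) fell, and so did Adra1d (-0.52 ± 0.18, adjusted p = 0.0382). KO astrocytes under TM were higher than WT for Adrb3 (1.84 ± 0.20, adjusted p = 9.5e-05), Adra1a (1.17 ± 0.25, adjusted p = 0.00317) and Adra1d (0.62 ± 0.22, adjusted p = 0.0375). The difference of the TM response between KO and WT astrocytes itself passed for Chrm2 (2.86 ± 0.81, adjusted p = 0.0168), Adra1a (1.26 ± 0.32, adjusted p = 0.0101) and Adrb3 (1.17 ± 0.27, adjusted p = 0.0056). Of the 5 other receptors tested there, 4 were higher and none lower, beside 2992 genes higher and 2211 lower of 15114. For Chrm2 neither TM contrast alone passed (adjusted p = 0.0993 in WT and 0.0838 in KO). Chrm2, the other Gi/o-coupled muscarinic receptor measured, fell 4.16-fold with loss of Perk in control astrocytes (adjusted p = 0.0174), from 2.33 ± 0.321 to 0.548 ± 0.278 CPM.

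In neurons, Adra1a, the alpha-1A receptor, rose under TM in WT (0.63 ± 0.15, adjusted p = 0.00619) and in KO (0.75 ± 0.17, adjusted p = 0.0164). Adrb3, which fell in WT astrocytes, rose in WT neurons (1.01 ± 0.28, adjusted p = 0.0143), from 0.847 ± 0.077 to 1.74 ± 0.137 CPM. Under TM, KO neurons were higher than WT for Adra1a (0.67 ± 0.15, adjusted p = 0.00703) and Adrb3 (0.95 ± 0.26, adjusted p = 0.0185).

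Genes that act downstream of the receptors were taken from lists by coupling arm. Their counts under TM stand beside a share of all genes called of 51.8% in WT neurons, 52.7% in WT astrocytes and 63.3% for KO against WT astrocytes under TM. In WT neurons 9 of 10 neuron markers were also lower under TM and none was higher (median log2 -0.91), and their sum went from 5950 to 6470 CPM with DMSO to 2980 to 3290 CPM with TM. The part of these markers in the counts that follow for WT neurons was not tested. Among 10 genes of the Gi/o arm, 9 fell and none rose under TM in WT neurons, with the potassium channel subunit Kcnj3 at -1.04 ± 0.18 (adjusted p = 0.00152) and the G protein subunit Gnai1 at -0.87 ± 0.11 (adjusted p = 0.000225). The list's median was -0.58, beside 0.039 over all genes tested. In WT astrocytes 4 of 7 tested genes of this arm fell under TM and 1 rose, beside 52.7% of all genes called. Gnao1, the main brain Go subunit, fell from 229 ± 12.3 to 89.7 ± 5.37 CPM (-1.37 ± 0.10, adjusted p = 4.62e-05), and Gnaz fell from 11.8 ± 1.78 to 4.22 ± 1.02 CPM. Under TM, KO astrocytes were higher than WT for 4 of the 7 and lower for 1, with Gnao1 at 355 ± 38.3 CPM (2.03 ± 0.11, adjusted p = 4.63e-06) and Gnaz at 13.7 ± 1.98 CPM (1.74 ± 0.22, adjusted p = 0.000206).

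In the Gq arm, 5 of 8 genes fell and none rose under TM in WT neurons, beside the 51.8% of all genes called, with the protein kinase C gene Prkca at -1.28 ± 0.12 (adjusted p = 5.06e-05) and the inositol trisphosphate receptor Itpr1 at -1.05 ± 0.08 (adjusted p = 1.75e-05). In WT astrocytes 4 of 8 fell and none rose, a share near the 52.7% of all genes called. With loss of Perk in control neurons, 3 of 8 rose and none fell, beside 21.4% of all genes called: Plcb4 (1.05 ± 0.21, adjusted p = 0.0144), Plcb1 (0.81 ± 0.19, adjusted p = 0.0228) and Itpr1 (0.26 ± 0.07, adjusted p = 0.0334). The Gq-coupled members Chrm1 and Chrm3 fell in that comparison, with calls close to the threshold, and Adra1b (-0.26 ± 0.12, adjusted p = 0.169) did not pass. The other alpha-1 receptors had positive values that did not pass: Adra1a (0.52 ± 0.17, adjusted p = 0.0579) and Adra1d (0.61 ± 0.30, adjusted p = 0.182).

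In the Gs and cyclic AMP arm, 12 of 17 genes fell and none rose under TM in WT neurons, beside 51.8% of all genes and 9 of 10 neuron markers, led by the adenylyl cyclase Adcy8 (-0.94 ± 0.14, adjusted p = 0.000656). In WT astrocytes 6 fell and 1 rose, beside 52.7% of all genes called, with Adcy5 at -2.52 ± 0.27 (adjusted p = 0.000248). Adcy5 also fell in KO astrocytes under TM (-1.31 ± 0.24, adjusted p = 0.0089), and it was higher in KO than in WT astrocytes under TM (1.70 ± 0.27, adjusted p = 0.000681). In control astrocytes, loss of Perk lowered the phosphodiesterase Pde4b (-1.12 ± 0.17, adjusted p = 0.0102) and Adcy8 (-0.74 ± 0.16, adjusted p = 0.0215). Of the 17, 2 fell and 2 rose, beside 14.9% of all genes called.

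Of the 14 genes that turn off receptor signals, the regulators of G protein signalling Rgs4 and Rgs2 changed most under TM in WT neurons, where 9 fell and none rose, beside 51.8% of all genes called and 9 of 10 neuron markers lower. Rgs4 fell from 673 ± 39.1 to 96.3 ± 3.29 CPM (-2.83 ± 0.09, adjusted p = 1.86e-07) and Rgs2 from 141 ± 14.3 to 42.4 ± 6.06 CPM (-1.76 ± 0.12, adjusted p = 9.64e-06). In KO neurons Rgs4 fell to 185 ± 16.5 from 457 ± 106 CPM (-1.31 ± 0.16, adjusted p = 0.00152), and under TM it was higher in KO than in WT (1.01 ± 0.10, adjusted p = 0.000177). In KO astrocytes under TM, Rgs2 was 5.21-fold and the arrestin Arrb1 3.39-fold above WT (adjusted p = 4.09e-05 and 3.93e-05).

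Among genes that make, carry or break down the transmitters, the monoamine oxidase Maob differed between genotypes under TM in both cell types. Maob fell under TM in WT astrocytes (-2.07 ± 0.44, adjusted p = 0.00559) and in WT neurons (-1.63 ± 0.31, adjusted p = 0.00241) and rose in KO neurons (1.42 ± 0.27, adjusted p = 0.00847). Under TM it was 8.11-fold higher in KO than in WT astrocytes (adjusted p = 0.000254) and 13.5-fold higher in neurons (adjusted p = 0.000159). In the neuron cultures, 9 of 10 tested astrocyte markers were also lower under TM in WT, beside 51.8% of all genes called. All 11 were higher in KO than in WT under TM, beside 40.1%. In KO under TM, 3 of 11 were higher and 1 lower, beside 23.8%. The part of these markers in the Maob differences was not tested. Of the nicotinic receptor genes, Chrna4 fell in WT neurons under TM from 17.3 ± 5.19 to 4.95 ± 1.01 CPM (-1.82 ± 0.25, adjusted p = 0.000382) and was 4.44-fold higher in KO than in WT neurons under TM (adjusted p = 0.00012).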

How the data were processed

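The authors deposited read counts per gene, with gene lengths and coordinates, for 24 libraries in 8 comparison tables. Reads were processed with fastp, HISAT2 and featureCounts on GRCm38.p6, per the submitters' processing notes, which also name DESeq2. The protocol names no strand-specific step, and the sources do not say whether counting used strand. The raw counts were joined on gene identifier, and a gene's counts were equal in all tables. A gene entered a fit when its counts averaged 10 or more in the fitted libraries. Fits used edgeR 4.0.16 (R 4.3.3, limma 3.58.1) with TMM scaling, the quasi-likelihood F test and Benjamini-Hochberg adjustment over all genes fitted (threshold 0.05). Each contrast was fitted on its own 6 libraries and each difference of contrasts on 12. SE is the absolute log2 difference divided by the square root of F. CPM was scaled within each cell type, except per-kilobase levels, which were scaled over all 24 libraries. Ratios of few counts carry exact 95% intervals for counting error.

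The receptors and gene lists were chosen with earlier results of these data known. For the 7 receptors, tests of any TM contrast were dropped, which is stricter than planned. The test of the Adra2c genotype difference between cell types was dropped too. Of each list, up to 3 called genes per comparison with the largest change were named, and, for likeness, the 5 highest r on log2(CPM + 1) among genes averaging 100 or more counts in each cell type. The alternatives were DESeq2 1.42.0, its size factors in edgeR, no count filter, a GC correction in 20 bins, the replicate number as a block, both together, and each library left out. Replicate numbers come from the sample titles. Same-numbered libraries deviated together in every pair (r from 0.15 to 0.60) in 6 of 10 comparisons: all 4 KO against WT and both TM contrasts in astrocytes. The fit was tested on simulated data before use. Results for some genes of the lists are not reported here.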

Additional observations from a re-analysis of the deposited data

Results flagged for a closer look

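For Adra2a and Adrb1, the KO minus WT difference without TM differed between neurons and astrocytes in edgeR's test of that difference (log2, neurons less astrocytes). The values were -0.78 for Adra2a and -0.52 for Adrb1. Adra2c (-1.11) also passed, but it was picked for opposite responses in the cell types, so its value is a description. The calls of Adra2a and Adrb1 were lost with the GC correction and in most fits without 1 library, and that of Adrb1 also without a count filter. Chrm1 (-2.51) and Chrm4 (2.59) also passed in that fit, but they entered it through the neuron libraries and had too few astrocyte counts to be fitted there alone, so their values are descriptions.

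For a further 6 values, every library of the compared groups lay on opposite sides in the 2 settings, in CPM scaled within cell types. The difference was not tested because the choice of genes used these responses. The KO minus WT difference under TM, neurons less astrocytes, was 1.90 for Adra1b and -5.88 for Adra2c. The TM response of KO astrocytes less that of WT astrocytes was 2.33 for Adra2a and 4.67 for Adra2c. The TM response of WT neurons less that of WT astrocytes was 4.69 for Chrm4 and 1.86 for Adra2a. For these 2 genes the neuron response was small, at log2 0.13 ± 0.13 for Chrm4 and 0.07 ± 0.10 for Adra2a. Scaled over all 24 libraries, their WT neuron libraries with DMSO and with TM overlapped. The means were then 9.22 and 9.12 CPM per kilobase for Chrm4, and 7.28 and 6.91 for Adra2a.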

How the results depend on the processing

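Of the 5 receptors called by genotype in control neurons, 2 passed with the GC correction, 3 with the GC correction and replicate block, and 0 to 5 with 1 library left out. Adra2a did not pass without a count filter (0.297, adjusted p = 0.15). Adrb1, not called there, changed sign with the GC correction (0.024) and with the GC correction and replicate block (0.028). In control astrocytes 1 receptor was called, and 2 were with the GC correction, the GC correction and replicate block, no count filter, or the replicate block alone. The block added Adrb1 there and changed no other call. Leaving out 1 library gave 0 to 2 calls, and a Chrm3 value of -0.777 to 0.162. For the difference between cell types, 5 calls became 3 with the GC correction and 2 to 4 with 1 library left out. These counts include Chrm1, Chrm4 and Adra2c, for which no test of that difference is given. Chrm3, called in neither, ranged from -0.656 to 0.303 there with 1 library left out. The cause of these changes was not tested. The calls between control cell types of the 5 members tested held with every alternative, except Adrb1 in WT without WT control neuron replicate 1 or 2. With 0 to 16 counts a library, depth limits Chrm4 and Chrm1 in astrocytes to ratios with wide intervals.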
